A study of Mus musculus with 8 samples.

Results

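3T3L1 Ddx6-KO cells were compared with TOM cells at day 2 of adipogenic induction, across all genes that reached at least 1 FPKM in at least 2 of the 8 libraries of the study. FPKM counts the sequenced fragments assigned to a gene per unit of transcript length and of library depth. Of 46073 genes in the table, 15811 met this rule. Among them, 2995 (18.9%) differed between the lines at day 2, with 1638 (10.4%) higher and 1357 (8.58%) lower in Ddx6-KO cells (limma on log2(FPKM + 1), Benjamini-Hochberg adjusted p under 0.05). The shares of 10.4% higher and 8.58% lower are those to set beside the count of each gene list below. A list whose called share is near them does not stand out from all tested genes. Called genes that differed by at least 2-fold in mean FPKM numbered 1318 higher and 916 lower. The spread in this fit came from all 8 libraries, and a fit of the day 2 libraries alone called 1001 genes.

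3T3L1 is a mouse preadipocyte line that becomes fat-storing adipocytes when it is exposed to dexamethasone, IBMX and insulin. Ddx6-KO cells carried a lentiviral Cas9 vector with a guide to exon 4 of Ddx6, and TOM cells carried the same vector with a guide against tdTomato, which the mouse genome does not hold. Both lines went through puromycin selection and single-cell cloning, so the knockout and any difference between clones cannot be told apart. The groups follow the day labels, with 2 libraries of total RNA in each of the 4 groups. Day 2 is 2 days after the cocktail was added. For samples labelled day 0 the timing is uncertain, because the treatment note attached to every sample gives the same harvest at 2 days of induction, and day 0 values are given here under that label. Replicate experiments are described for gene expression in general, but not whether these libraries derive from separate cultures, and the p-values may reflect technical spread alone.

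Ddx6 is a DEAD-box RNA helicase that acts in mRNA decapping and translational repression and is needed for processing bodies, the cytoplasmic granules in which repressed mRNAs and decay enzymes gather. Adipogenesis of 3T3L1 cells runs as a cascade of transcription factors. Cebpb and Cebpd respond first to the cocktail, then Pparg and Cebpa are induced, and these turn on the genes of lipid uptake, lipid storage and secretion that define the adipocyte.

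The guide lies in the coding exon 4 of Ddx6, which spans 105 bases at chr9:44614212-44614316 on the plus strand (GRCm38). No other exon is numbered 4 among the 3 annotated transcripts of the gene in GENCODE M21. The targeted exon is shown because it is the edited part of the gene, whereas FPKM sums fragments over the whole gene.
Ddx6 exon 4: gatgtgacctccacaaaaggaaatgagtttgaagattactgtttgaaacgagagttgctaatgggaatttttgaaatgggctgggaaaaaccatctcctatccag
The level of Ddx6 was 50.001 and 43.0 FPKM in the libraries labelled Ddx6-KO and 28.8 and 28.4 FPKM in the TOM libraries. Both Ddx6-KO libraries lay above both TOM libraries, and the difference of 0.68 on the log2 scale (SE 0.25) did not pass the threshold (adjusted p = 0.0989 from limma). It passed when either TOM day 0 library was left out of the fit. A level summed over the gene does not show whether the transcripts carry an edited exon, and the libraries are named here by their labels. For the protein, the study reports its loss in Ddx6-KO cells by western blotting.

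The day 2 libraries were shallow. From the spacing of low FPKM values, they held an estimated 1480000 and 2520000 fragments in Ddx6-KO and 2460000 and 2710000 in TOM cells, against 3390000 to 21230000 at day 0. Genes near 1 FPKM therefore rested on few fragments, and a value of 0 means only that the gene is listed at 0, since mRNAs that every cell uses, such as mt-Co3, were listed at 0 in some libraries. Small RNAs took 46.1 and 36.7% of all FPKM in Ddx6-KO and 53.2 and 53.3% in TOM cells. Without one library at a time, the number of genes called was 1534 without Ddx6-KO library 1, 2241 without Ddx6-KO library 2, 1160 without TOM library 1 and 1239 without TOM library 2. The median difference over all tested genes was 0.11 and fell to -0.01 after TPM rescaling, under which 1062 genes were higher and 1585 lower, so that the share of higher calls was 40.1% in place of 54.7%. Markers of other cell types were at low levels. The 10 macrophage markers summed to 8.7 and 8.8 FPKM in Ddx6-KO and 8.4 and 5.8 FPKM in TOM cells, 8 epithelial markers to at most 2.0 FPKM, and 8 endothelial markers to 6.0 and 8.7 against 1.6 and 2.3 FPKM.

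Regulatory windows of 2 genes are shown from those that the comparison turned on, one of a gene that was high in Ddx6-KO cells and one of a gene that was high in TOM cells. Each runs from 250 bases before to 50 bases after the transcription start in RefSeq (GRCm38.p6, minus strand for both). Capitals mark matches on either strand to the cAMP response element, TGACGTCA, or to the C/EBP motif, TTGCNNAA. Dio2 lies on chromosome 12 and encodes the deiodinase that makes active thyroid hormone, and its window is chr12:90738989-90739288. Plin1 lies on chromosome 7 and encodes perilipin 1, a coat protein of lipid droplets, and its window is chr7:79732727-79733026. Plin1 was chosen after its values were seen.
Dio2: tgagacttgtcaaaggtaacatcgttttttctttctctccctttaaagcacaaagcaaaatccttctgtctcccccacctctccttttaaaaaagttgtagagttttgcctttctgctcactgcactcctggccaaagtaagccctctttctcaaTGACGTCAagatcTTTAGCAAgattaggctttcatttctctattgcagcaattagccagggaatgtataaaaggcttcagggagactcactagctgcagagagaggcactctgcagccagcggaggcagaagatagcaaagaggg
Plin1: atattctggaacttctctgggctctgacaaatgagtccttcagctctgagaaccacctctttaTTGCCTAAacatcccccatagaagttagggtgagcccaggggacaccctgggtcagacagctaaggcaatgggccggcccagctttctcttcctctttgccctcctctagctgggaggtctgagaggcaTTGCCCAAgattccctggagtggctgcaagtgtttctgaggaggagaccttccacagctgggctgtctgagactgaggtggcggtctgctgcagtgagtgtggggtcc
The Dio2 window held 1 cAMP response element 95 bases before the start and 1 C/EBP match 82 bases before it. The Plin1 window held 2 C/EBP matches, at 187 and 58 bases before the start. Over 32851 windows of all genes, each window counted by itself, 1.79% held the cAMP response element and 10.8% the C/EBP motif. The shares that follow count genes, with a motif present if any window of the gene held it. The 2 kinds of share are therefore not comparable. Among tested genes with a window, the cAMP response element was present for 2.93% of 990 genes called higher, 3.53% of 934 called lower and 3.49% of all 10090, and the C/EBP motif for 11%, 9.42% and 10.1%. A match is a description of these letters and not evidence of binding.

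Genes of the adipocyte were low in Ddx6-KO cells at day 2. Of 22 adipocyte markers, 17 were tested, 13 were lower, none was higher and 4 did not pass, with a median of -2.28, whereas the median over all genes was 0.11. Fabp4, the fatty acid binding protein of adipocytes (chromosome 3, 10204088 to 10208576), was at 8.03 and 4.66 FPKM in Ddx6-KO and at 520 and 496 FPKM in TOM cells. The Ddx6-KO libraries were 80.1-fold lower by mean FPKM (log2 difference -6.15, SE 0.22, adjusted p = 3.19e-05). Acsl1, which activates long-chain fatty acids, was at 5.40 in both Ddx6-KO libraries and at 107 and 117 FPKM in TOM (-4.14, SE 0.14, adjusted p = 3.19e-05). Cidec, a lipid droplet protein, was at 0.869 and 0 against 20.6 and 18.5 FPKM (-3.91, SE 0.34, adjusted p = 0.000809). Lpl, the lipase that releases fatty acids from lipoproteins, was at 12.2 and 12.8 against 83.0 and 89.1 FPKM (-2.69, SE 0.16, adjusted p = 0.000183), and Fitm2, which takes part in lipid droplet formation, at 3.35 and 3.20 against 22.6 and 21.6 FPKM (-2.44, SE 0.18, adjusted p = 0.000472). In each of these genes the lines did not overlap. Plin1 was at 0 and 0.231 against 4.54 and 4.32 FPKM (-2.29, SE 0.29, adjusted p = 0.00299), and the other called markers, named after their values were seen except Cfd, were Plin4 (-3.15), Cd36 (-2.34), Adipoq (-2.28), Cfd (-2.07), Lipe (-1.94), Tmem120a (-1.90) and Pnpla2 (-1.84). Retn, Aqp7, Gpd1 and Pck1, also named after their values were seen, did not pass (-1.50, -0.01, 0.70 and 1.03). Cfd, the protease adipsin, was listed at 0 in both Ddx6-KO libraries and at 2.65 and 3.84 FPKM in TOM cells. The count of lower markers was 11 without TOM library 1 and 12 without TOM library 2. The same 17 markers had a median of -0.19 at day 0, where 2 were lower.

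**Figure D1:**
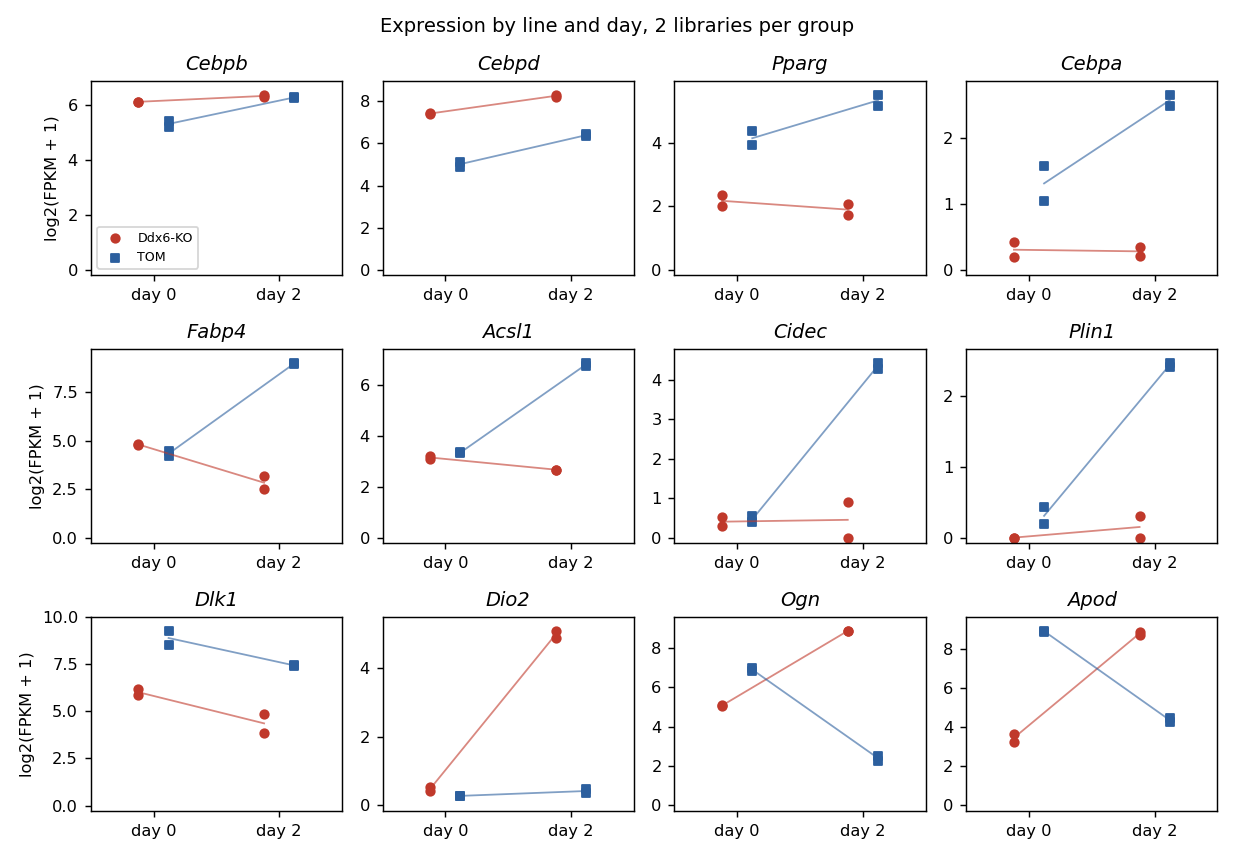
Expression of 12 genes as log2(FPKM + 1) in Ddx6-KO (circles) and TOM cells (squares) at day 0 and day 2, with 1 point per library and lines through the group means. Fabp4, Acsl1, Cidec and Plin1 stood higher in TOM than in Ddx6-KO libraries at day 2, whereas Dio2 stood high in Ddx6-KO libraries at day 2 alone.

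The transcription factors of the second wave split by gene. Pparg, the nuclear receptor at the centre of the adipogenic programme (chromosome 6, 115360951 to 115490399), was at 3.16 and 2.32 FPKM in Ddx6-KO and at 34.6 and 44.0 FPKM in TOM cells, 14.3-fold lower by mean FPKM (-3.43, SE 0.25, adjusted p = 0.000396). It was also lower at day 0, by -1.97. Cebpa, its partner in maintaining the programme, was at 0.271 and 0.159 against 5.25 and 4.60 FPKM (-2.29, SE 0.29, adjusted p = 0.00308). Srebf1, which drives genes of fatty acid synthesis, was at 7.94 and 7.96 against 32.4 and 27.3 FPKM (-1.78, SE 0.17, adjusted p = 0.00101). Of 9 second-wave factors, 4 were lower and 2 higher, with a median of -0.87. The 2 higher ones were Ppargc1a and the clock repressor Nr1d1. Without either Ddx6-KO library, no second-wave factor was higher and 3 were lower, and 1 was higher without either TOM day 2 library.

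Among the early factors, Cebpd was higher and Cebpb did not pass. Cebpb was at 76.8 and 80.4 FPKM in Ddx6-KO and at 76.7 and 74.5 FPKM in TOM cells, and the difference of 0.06 (SE 0.13, adjusted p = 0.802) turned to -0.12 after TPM rescaling. Cebpd, at 298 and 313 against 79.4 and 86.5 FPKM, was higher (1.87, SE 0.13, adjusted p = 0.000361), as it was at day 0 (2.40). Of 18 first-wave factors tested, Cebpd, Klf5, Creb1 and Klf9 were higher, Nfil3 and Stat5a were lower, and 12 did not pass, with a median of 0.24. Klf9 and Stat5a were named after their values were seen. Nfil3, a bZIP repressor, was at 11.5 and 12.4 against 39.2 and 35.8 FPKM (-1.57, SE 0.18, adjusted p = 0.00217). The counts depended on single libraries: 1 higher and 1 lower without either Ddx6-KO day 0 library, Ddx6-KO day 2 library 1 or either TOM day 2 library, 2 of each without Ddx6-KO day 2 library 2, and 3 higher and 1 lower without either TOM day 0 library.

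Genes that hold back adipogenesis were mixed. Dlk1 encodes the membrane protein Pref-1 (chromosome 12, 109452823 to 109463336) and was at 27.9 and 13.5 FPKM in Ddx6-KO and at 167 and 175 FPKM in TOM cells, 8.27-fold lower (-3.07, SE 0.36, adjusted p = 0.00222). At day 0 it was at 70.3 and 57.0 against 358 and 616 FPKM. Trib2, a pseudokinase, was at 36.9 and 41.3 against 8.12 and 4.28 FPKM (2.53, SE 0.26, adjusted p = 0.00149), and Zfp521, a zinc finger repressor on chromosome 18, at 8.85 and 9.52 against 3.87 and 3.804 FPKM (1.07, SE 0.18, adjusted p = 0.00836). Genes of chromosome 18 had a median of 1.00, and the part of this shift in the differences of its genes was not tested. Klf2 was at 3.58 and 4.66 against 0.962 and 1.52 FPKM (adjusted p = 0.0264) and Klf7 at 9.56 and 8.17 against 2.87 and 2.16 FPKM (adjusted p = 0.0161). Hes1, the Notch effector, was at 0.513 and 1.38 against 7.34 and 4.21 FPKM (-1.80, SE 0.33, adjusted p = 0.0113). Of 19 members tested, 5 were higher and 3 lower, with a median of 0.56. In a fit of the day 2 libraries alone, 1 was higher and 1 lower. Zfp521, Klf7 and Hes1 were among the calls lost there (adjusted p = 0.0555, 0.0522 and 0.0877 from limma). Without Ddx6-KO library 1, TOM library 1 or TOM library 2, there were 2 of each. The call of Klf2 was lost without any 1 of the 4 day 2 libraries (adjusted p from 0.0618 to 0.121), that of Klf7 without Ddx6-KO library 1 or either TOM library (0.0565 to 0.0852), and that of Hes1 without Ddx6-KO library 1 (0.0535) or TOM library 1 (0.0685). Gata2 and Gata3 did not pass, with differences of 0.51 and 1.27. Klf4 and Klf6, which the study names among factors of the first wave and not as negative regulators, did not pass either (0.25 and 0.48).

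Mesenchymal transcription factors went in both directions. Zeb1, a zinc finger repressor of epithelial genes on chromosome 18, was at 55.2 and 49.9 FPKM in Ddx6-KO and at 19.005 and 15.7 FPKM in TOM cells (1.55, SE 0.17, adjusted p = 0.00181). Zeb2 was at 25.98 and 20.8 against 46.6 and 72.0 FPKM (-1.28, SE 0.36, adjusted p = 0.0467) and Snai1 at 14.7 and 11.3 against 28.1 and 26.1 FPKM (-1.01, SE 0.28, adjusted p = 0.0436). The calls of Zeb2 and Snai1 were each lost without either Ddx6-KO day 0 library or any 1 of the 4 day 2 libraries (adjusted p from 0.0793 to 0.203 and from 0.0832 to 0.16). Snai2, Twist1 and Twist2 did not pass, with differences of -1.02, 0.39 and -0.00. Twist1 was at -0.18 without Ddx6-KO library 1. Cell surface proteins of stromal cells were also divided. Pdgfrb, a PDGF receptor on chromosome 18, was at 31.3 and 29.8 against 6.04 and 7.78 FPKM (2.00, SE 0.16, adjusted p = 0.000569). The cadherin Cdh11 was at 118 and 116 against 47.0 and 44.8 FPKM (1.33, SE 0.12, adjusted p = 0.00101), and Vcam1, an adhesion molecule, at 53.2 and 59.6 against 22.8 and 23.0 FPKM (1.26, SE 0.13, adjusted p = 0.00145). Cdh2, N-cadherin, also on chromosome 18, was at 46.2 and 42.0 against 15.3 and 14.2 FPKM (1.52, SE 0.14, adjusted p = 0.00107). Of 17 members tested, 6 were higher and 4 lower, with a median of 0.23. The lower count was 2 without either Ddx6-KO day 0 library, Ddx6-KO day 2 library 2 or either TOM day 2 library, and the median was -0.03 after removal of the length trend.

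Enzymes that build triglyceride were low. Of 13 tested, 6 were lower and none was higher, with a median of -0.78. Agpat2, an acyltransferase of the phosphatidic acid step, was at 2.44 and 4.22 FPKM in Ddx6-KO and at 23.5 and 24.4 FPKM in TOM cells (-2.56, SE 0.23, adjusted p = 0.000928). Gpat3, which catalyses the first acylation, was at 0.739 and 1.30 against 11.3 and 8.55 FPKM (-2.44, SE 0.27, adjusted p = 0.00183), and Dgat2, which makes the final product, at 2.89 and 3.01 against 11.8 and 14.6 FPKM (-1.84, SE 0.20, adjusted p = 0.00168). The lower count was 3 without either TOM library. Of 14 genes of fatty acid synthesis and desaturation, 2 were higher and 3 lower, with a median of 0.13. Pcx, pyruvate carboxylase, was at 12.3 and 10.6 against 60.1 and 65.4 FPKM (-2.36, SE 0.23, adjusted p = 0.00113) and the desaturase Scd1 at 8.32 and 8.50 against 19.99 and 16.7 FPKM (-1.03, SE 0.15, adjusted p = 0.00538), whereas the desaturase Fads1 was at 20.97 and 24.7 against 9.86 and 9.14 FPKM (1.18, SE 0.15, adjusted p = 0.00283). Fasn, fatty acid synthase, named after its values were seen, did not pass at -0.33. The median of this list was below 0 after TPM rescaling (-0.02), after removal of the length trend (-0.13) and without Ddx6-KO library 1 (-0.04). There was 1 gene higher and 2 lower without either Ddx6-KO day 0 library, Ddx6-KO day 2 library 1 or either TOM day 2 library.

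Glycolytic and hypoxia-induced genes were lower or did not pass. Of 23 tested, 9 were lower and none was higher, with a median of -0.58, and at day 0 the same genes had a median of 1.12 with 16 higher. Ldha, lactate dehydrogenase A, was at 59.4 and 65.5 FPKM in Ddx6-KO and at 199 and 201 FPKM in TOM cells (-1.67, SE 0.14, adjusted p = 0.000645). Vegfa, the angiogenic growth factor, was at 48.7 and 42.8 against 135 and 117 FPKM (-1.44, SE 0.17, adjusted p = 0.00231), and the glycolytic enzymes Eno1 and Pfkl were lower as well (-1.59 and -1.57). Without any 1 of the 4 day 2 libraries, the lower count was 4, and 1 gene was higher without Ddx6-KO library 1. Cholesterol genes showed 2 higher and 5 lower of 23, with a median of -0.03 against 1.14 at day 0. The day 2 median was -0.38 without Ddx6-KO library 2, -0.13 without Ddx6-KO library 1 and -0.20 after TPM rescaling. Hmgcs1, an enzyme early in sterol synthesis, was at 29.9 and 28.7 against 52.5 and 48.4 FPKM (-0.76, SE 0.13, adjusted p = 0.00867), and lost its call without TOM library 1 (0.0585). Stard4, a sterol carrier on chromosome 18, was at 12.4 and 15.3 against 4.06 and 4.71 FPKM (1.46, SE 0.22, adjusted p = 0.00538). The lower count of the cholesterol list fell to 2 without Ddx6-KO day 2 library 2 or a day 0 library of the same line, to 1 without Ddx6-KO day 2 library 1 or TOM day 2 library 2, and to 0 without TOM day 2 library 1. Of 19 genes of fatty acid oxidation, 4 were lower and 1 higher, and the lower count was 1 without TOM library 1 and 2 without TOM library 2. The higher gene was Acaa2, a mitochondrial thiolase on chromosome 18 (1.45).

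**Figure D2:**
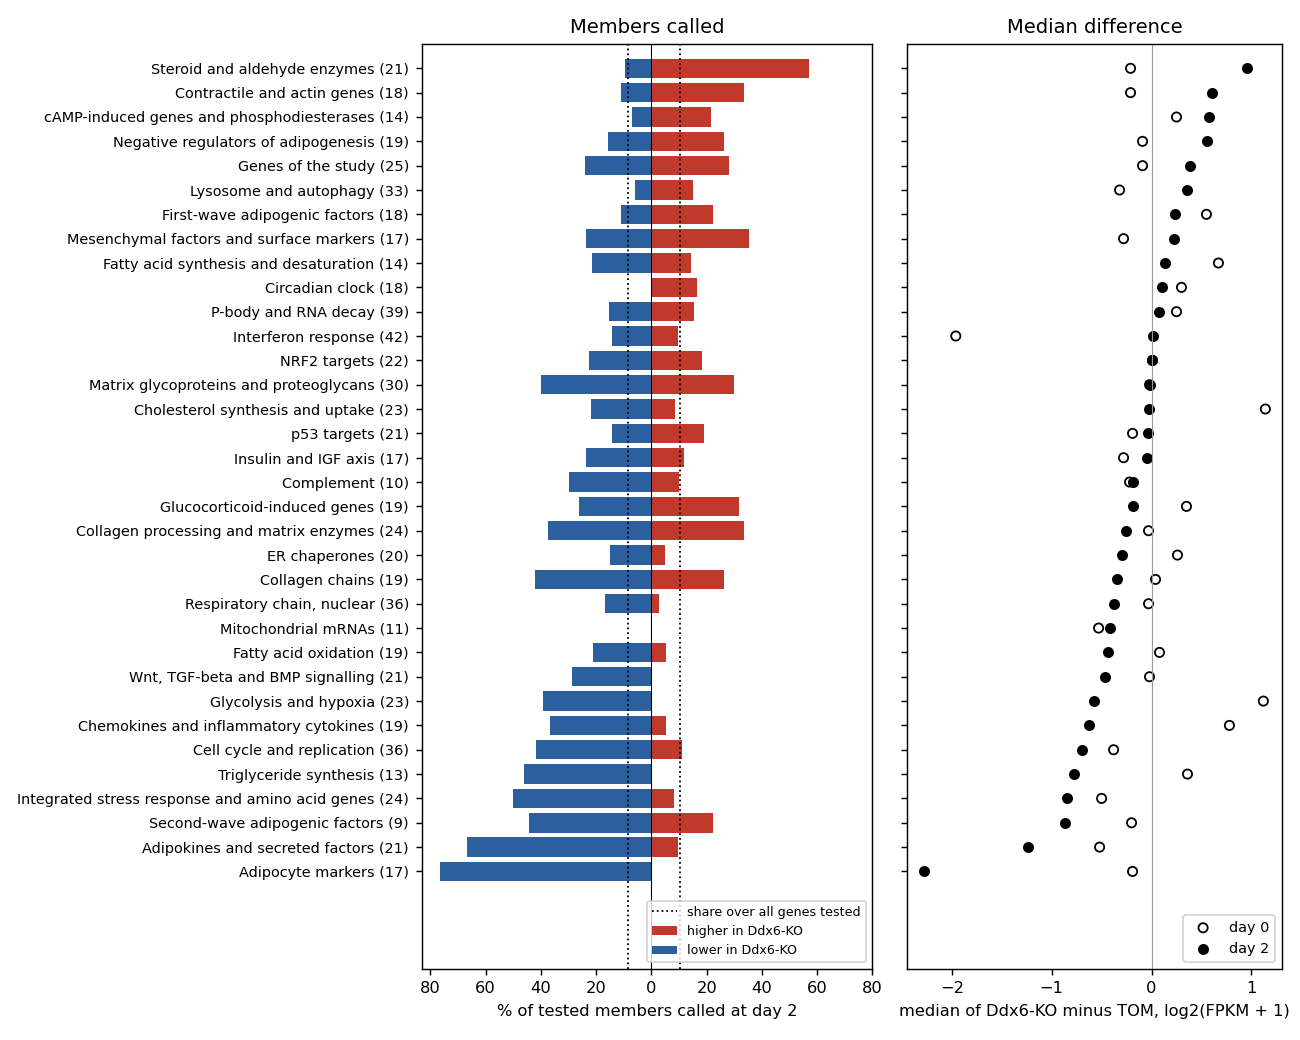
Left, the percentage of tested members of each gene list called higher (red) or lower (blue) in Ddx6-KO cells at day 2, with dotted lines at the shares over all genes (10.4% and 8.58%) and the number tested in parentheses. Right, the median log2 difference of each list at day 2 (filled) and day 0 (open), from -2.28 for adipocyte markers to 0.96 for steroid and aldehyde enzymes at day 2.

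The largest differences in the higher direction included secreted and matrix proteins. Ogn encodes osteoglycin, a small leucine-rich proteoglycan (chromosome 13, 49608046 to 49624501), and was at 459 and 469 FPKM in Ddx6-KO and at 4.78 and 3.86 FPKM in TOM cells, 107.5-fold higher (6.46, SE 0.14, adjusted p = 4.92e-06). At day 0 it was at 31.8 and 33.6 against 126 and 111 FPKM, the opposite direction. Mgp, an inhibitor of calcification, was at 483 and 490 against 10.1 and 13.3 FPKM (5.27, SE 0.15, adjusted p = 1.3e-05). Apod, a lipocalin (chromosome 16, 31296192 to 31314808), was at 467 and 424 against 18.3 and 21.03 FPKM (4.43, SE 0.16, adjusted p = 3.19e-05). At day 0 Apod was at 8.61 and 11.6 FPKM in Ddx6-KO and 492 and 473 FPKM in TOM cells. Ccn2, a matricellular growth factor, was at 17.4 and 15.4 FPKM in Ddx6-KO cells and listed at 0 in both TOM libraries, and Thbs1, thrombospondin 1, was at 71.4 and 63.6 against 5.86 and 6.92 FPKM (3.21, SE 0.15, adjusted p = 8.01e-05).

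Other genes among the 15 with the largest higher differences had no single role. Dmd, dystrophin, was at 55.2 and 59.5 FPKM in Ddx6-KO and at 0.258 and 0.833 FPKM in TOM cells (5.26, SE 0.45, adjusted p = 0.000752). Peg10 and Rtl3, both derived from retrotransposons, were at 20.9 and 15.3 against 0.162 and 0.0731 FPKM and at 14.0 and 11.8 against 0 and 0.527 FPKM. Cavin2, a caveolar coat protein, was at 49.8 and 49.6 against 2.67 and 4.57 FPKM (3.49, SE 0.24, adjusted p = 0.000342). Plscr2, a phospholipid scramblase, was at 20.6 and 24.3 against 0.963 and 0.679 FPKM, and Aox3, an aldehyde oxidase, at 14.6 and 20.7 against 0.792 and 0.165 FPKM.

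**Figure D3:**
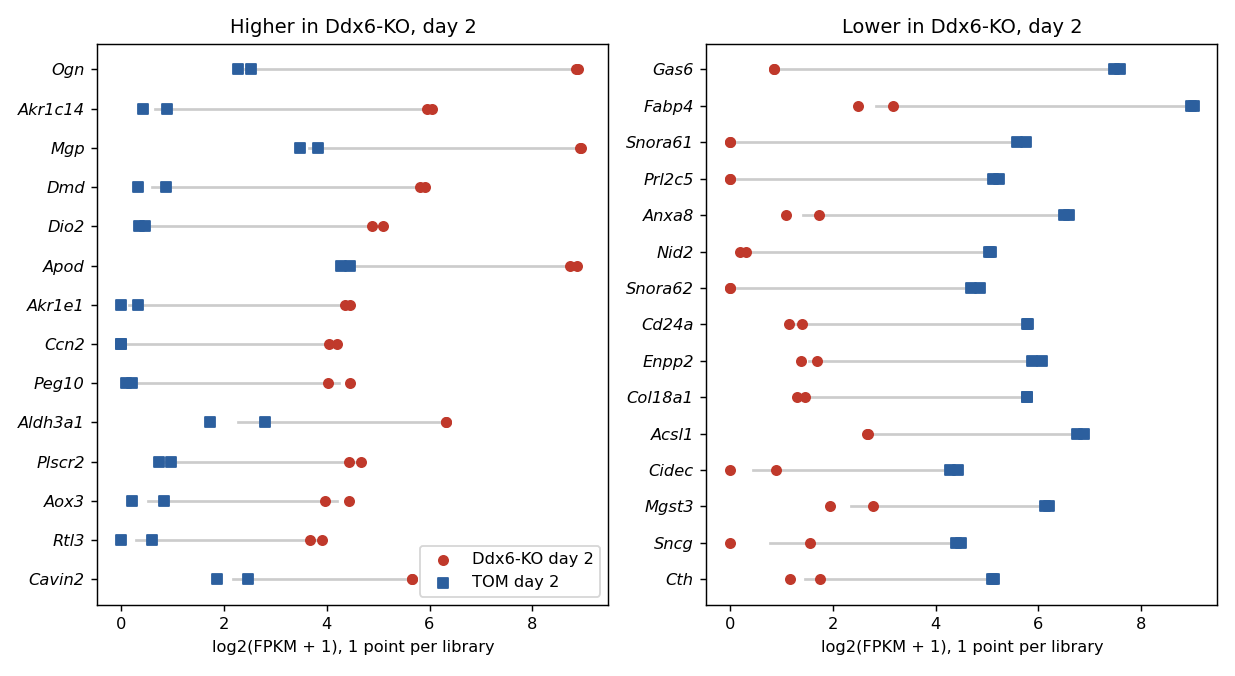
Genes with the largest higher (left, 14 genes) and lower (right, 15 genes) differences under the rule for named genes, as log2(FPKM + 1) with 1 point per library, circles for Ddx6-KO and squares for TOM at day 2. The lines did not overlap in any of the 29 genes, which the rule required, and Ogn (6.46) and Gas6 (-6.66) had the largest differences.

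The largest lower differences also included secreted proteins. Gas6, the ligand of the TAM receptor tyrosine kinases (chromosome 8, 13465374 to 13494490), was at 0.827 and 0.808 FPKM in Ddx6-KO and at 176 and 190 FPKM in TOM cells (-6.66, SE 0.25, adjusted p = 3.19e-05). It was also lower at day 0 (-5.38). Enpp2, autotaxin, which makes lysophosphatidic acid, was at 1.61 and 2.23 against 66.4 and 57.6 FPKM (-4.44, SE 0.18, adjusted p = 4.53e-05). Anxa8, an annexin, was at 2.34 and 1.14 against 95.6 and 88.8 FPKM (-5.12, SE 0.27, adjusted p = 0.000124), whereas at day 0 it was at 4.97 and 5.32 against 2.38 and 1.39 FPKM. Cd24a, a cell surface glycoprotein that marks adipocyte progenitors, was at 1.22 and 1.66 against 54.5 and 53.9 FPKM (-4.51, SE 0.25, adjusted p = 0.000141). Mgst3, a microsomal glutathione transferase, was at 2.86 and 5.86 against 68.8 and 72.7 FPKM, and Sncg, gamma-synuclein, at 1.94 and 0 against 21.6 and 20.1 FPKM. Prl2c5, one of several near-identical proliferin genes whose fragments can be shared, was listed at 0 against 33.7 and 36.4 FPKM. Snora61 and Snora62, small nucleolar RNAs, were listed at 0 in both Ddx6-KO libraries and at 53.002 and 47.05 and at 28.0 and 24.7 FPKM in TOM cells. Both lost their calls without any 1 of the 4 day 2 libraries (adjusted p from 0.105 to 0.126 and from 0.138 to 0.164).

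Collagen chains and basement membrane proteins differed by gene. Col18a1, a basement membrane collagen, was at 1.75 and 1.47 FPKM in Ddx6-KO and at 53.8 and 53.6 FPKM in TOM cells (-4.39, SE 0.18, adjusted p = 4.53e-05), and Col6a3, a chain of beaded-filament collagen VI, at 58.4 and 48.3 against 239 and 218 FPKM (-2.08, SE 0.14, adjusted p = 0.000304). Nid2, a nidogen of basement membranes, was at 0.142 and 0.250 against 31.8 and 32.8 FPKM (-4.80, SE 0.19, adjusted p = 4.53e-05). The fibrillar chain Col11a1 was at 15.6 and 13.9 against 1.24 and 1.79 FPKM (2.66, SE 0.20, adjusted p = 0.000472) and the short chain Col8a1 at 5.56 and 6.20 against 0.986 and 0.817 FPKM (1.85, SE 0.18, adjusted p = 0.00112). Col1a2, of type I collagen, was at 341 and 330 against 207 and 214 FPKM (0.67, SE 0.12, adjusted p = 0.0117), but not without Ddx6-KO library 1 or either TOM library (0.0569 to 0.075) or after TPM rescaling (0.0951). Of 19 collagen chains, 5 were higher and 8 lower, with a median of -0.35. There were 3 higher and 7 lower without either Ddx6-KO library, 3 and 5 without TOM library 1 and 2 and 6 without TOM library 2. Of 30 matrix glycoproteins and proteoglycans, 9 were higher and 12 lower, with 5 and 6 without TOM library 1 and 6 and 7 without TOM library 2. Thbs2, thrombospondin 2, was at 39.2 and 36.6 against 19.7 and 21.6 FPKM (0.85, SE 0.14, adjusted p = 0.0082), and lost its call without TOM library 1 (0.0556).

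Enzymes that process the matrix were divided as well. Lox, the lysyl oxidase that crosslinks collagen and lies on chromosome 18, was at 422 and 382 FPKM in Ddx6-KO and at 69.0 and 68.8 FPKM in TOM cells (2.52, SE 0.12, adjusted p = 0.000104). Mmp2, a gelatinase, was at 882 and 807 against 206 and 204 FPKM (2.03, SE 0.12, adjusted p = 0.000209), Mmp13, a collagenase, at 9.07 and 8.44 against 0.162 and 0.438 FPKM (2.92, SE 0.20, adjusted p = 0.000345), and Adamts2, a procollagen protease, at 26.3 and 27.9 against 6.24 and 5.87 FPKM (2.00, SE 0.15, adjusted p = 0.00051). Pcolce, the enhancer of procollagen C-proteinase, was lower at 82.1 and 86.9 against 166 and 182 FPKM (-1.03, SE 0.13, adjusted p = 0.00272). Of 24 tested, 8 were higher and 9 lower, with a median of -0.26. Each count was 4 without Ddx6-KO library 1 and 5 without TOM library 2, and without Ddx6-KO library 2 or TOM library 1 there were 5 higher and 4 lower. Of 18 contractile and actin genes, 6 were higher and 2 lower, with a median of 0.61. Tpm1, a tropomyosin, was at 95.3 and 106 against 43.9 and 38.2 FPKM (1.28, SE 0.14, adjusted p = 0.00162), and Vcl, vinculin, at 18.1 and 15.4 against 33.4 and 33.1 FPKM (-0.95, SE 0.14, adjusted p = 0.00508). The count of higher contractile genes was 2 without Ddx6-KO library 1 or TOM library 2 and 1 without TOM library 1.

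Targets of the induction cocktail differed between the lines in both directions. Dexamethasone acts through the glucocorticoid receptor, and IBMX raises cAMP by inhibiting phosphodiesterases. Dio2, a cAMP-induced gene, was at 33.1 and 28.5 FPKM in Ddx6-KO and at 0.288 and 0.390 FPKM in TOM cells, 91.0-fold higher (4.57, SE 0.23, adjusted p = 0.000117), and at no more than 0.464 FPKM in any library at day 0. Ppargc1a, a coactivator of mitochondrial genes that cAMP induces, was at 12.2 and 12.9 against 2.21 and 1.56 FPKM (2.24, SE 0.41, adjusted p = 0.0115), and lost its call without either Ddx6-KO library (0.0565 and 0.0502) or TOM library 2 (0.0666). The phosphodiesterase Pde4b went the other way at 9.17 and 12.6 against 29.8 and 26.9 FPKM (-1.32, SE 0.22, adjusted p = 0.0082), but not without TOM library 1 (0.0573). Of 14 cAMP-induced genes and phosphodiesterases tested, 3 were higher and 1 lower, with a median of 0.58, 1 of each without either Ddx6-KO library or TOM library 2, and 2 higher and none lower without TOM library 1. Tsc22d3, the glucocorticoid-induced leucine zipper, was at 371 and 381 against 78.9 and 86.4 FPKM (2.17, SE 0.16, adjusted p = 0.000396), and Errfi1, an inhibitor of EGF receptor signalling, at 168 and 167 against 58.9 and 53.1 FPKM (1.56, SE 0.13, adjusted p = 0.000707). Gadd45g, a stress sensor, was at 8.10 and 9.86 against 53.4 and 57.6 FPKM (-2.51, SE 0.20, adjusted p = 0.000614) and the protease inhibitor Serpina3n at 59.2 and 55.3 against 206 and 227 FPKM (-1.90, SE 0.16, adjusted p = 0.000752), with the caution that Serpina3 genes are close copies. Of 19 glucocorticoid-induced genes, 6 were higher and 5 lower, and the higher count was 3 without Ddx6-KO library 1 or TOM library 1 and 2 without TOM library 2.

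Enzymes that oxidise or reduce steroids and aldehydes were high. Of 21 tested, 12 were higher and 2 lower, with a median of 0.96, and the counts stayed within 9 to 12 higher without any 1 library. At day 0, 4 were higher and 2 lower, with a median of -0.21. Akr1c14, a hydroxysteroid dehydrogenase, was at 60.7 and 65.5 FPKM in Ddx6-KO and at 0.357 and 0.861 FPKM in TOM cells (5.33, SE 0.26, adjusted p = 0.000101). Aldh3a1, an aldehyde dehydrogenase, was at 78.6 and 78.4 against 5.98 and 2.35 FPKM (4.04, SE 0.37, adjusted p = 0.00101), and Adh7, an alcohol and retinol dehydrogenase, at 39.8 and 37.9 against 3.42 and 3.17 FPKM (3.21, SE 0.21, adjusted p = 0.000309). Akr1c18, which inactivates progesterone, was at 8.33 and 9.37 against 0 and 0.388 FPKM (3.06, SE 0.28, adjusted p = 0.000928). Akr1e1 was at 19.5 and 20.8 against 0.260 and 0 FPKM. Genes of the Akr1c and Aldh1a families lie next to close copies, and their fragments can be shared between members.

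Most adipokines and other secreted proteins were low, whereas Apod, a member of this list described above, was higher (4.43). Of 21 tested, 14 were lower and 2 higher, with a median of -1.24, and without any 1 library 10 to 14 were lower. Ptx3, a pentraxin, was at 10.7 and 10.2 FPKM in Ddx6-KO and at 57.5 and 62.2 FPKM in TOM cells (-2.41, SE 0.16, adjusted p = 0.000315), and Hp, haptoglobin, at 18.1 and 15.6 against 63.1 and 71.3 FPKM (-1.93, SE 0.15, adjusted p = 0.000569). Chemokines followed, with 7 of 19 lower and 1 higher and a median of -0.63, whereas 9 were higher and 5 lower at day 0. Cx3cl1, fractalkine, was at 0.426 and 0.622 against 16.4 and 15.6 FPKM (-3.48, SE 0.26, adjusted p = 0.000429), Cxcl12 at 77.0 and 72.5 against 284 and 281 FPKM (-1.91, SE 0.11, adjusted p = 0.000183) and Ccl7 at 6.27 and 6.11 against 26.5 and 31.4 FPKM (-2.05, SE 0.20, adjusted p = 0.00127). Lcn2, lipocalin 2, was at 120 and 112 against 276 and 276 FPKM at day 2 (-1.24, SE 0.13, adjusted p = 0.00158) and at 1052 and 895 against 145 and 151 FPKM at day 0. Of 10 complement genes, 3 were lower and 1 was higher, with 1 lower without TOM library 1. C3, the central complement protein, was at 304 and 247 against 493 and 497 FPKM (-0.85, SE 0.15, adjusted p = 0.00926), and lost its call without either TOM library (0.0558 and 0.0553).

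Ligands and targets of growth factor pathways were lower where they passed. Of 21 genes of Wnt, TGF-beta and BMP signalling, 6 were lower and none was higher, with a median of -0.47, and 2 were lower without TOM library 1. Id1, an inhibitor of DNA binding that BMP induces, was at 14.99 and 14.2 against 48.3 and 56.2 FPKM (-1.77, SE 0.18, adjusted p = 0.00145). Igf1, the insulin-like growth factor, was at 4.69 and 4.10 against 36.2 and 24.1 FPKM (-2.51, SE 0.25, adjusted p = 0.00118), while its receptor Igf1r was at 37.8 and 27.8 against 7.79 and 8.58 FPKM (1.87, SE 0.28, adjusted p = 0.00529). Of 17 genes of the insulin and IGF axis, 2 were higher and 4 lower. The lower count was 2 without either Ddx6-KO day 0 library or any 1 of the 4 day 2 libraries, and the higher count was 1 without either Ddx6-KO day 0 library, Ddx6-KO library 1 or TOM library 1.

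Interferon-response genes were near balance at day 2. Of 42 tested, 4 were higher and 6 lower, with a median of 0.01, whereas 35 were lower at day 0 with a median of -1.96. Over all tested genes, 10.4% were higher and 8.58% lower at day 2. Bst2, tetherin, was at 46.6 and 42.8 FPKM in Ddx6-KO and at 14.7 and 10.9 FPKM in TOM cells (1.74, SE 0.25, adjusted p = 0.00469), and Irf1, an interferon regulatory factor, at 40.4 and 34.6 against 18.6 and 17.1 FPKM (1.03, SE 0.15, adjusted p = 0.00517). Iigp1, an interferon-inducible GTPase on chromosome 18, was at 1.69 and 2.69 against 7.90 and 7.54 FPKM (-1.47, SE 0.20, adjusted p = 0.00427). The median was below 0 with the smaller pseudocount (-0.06), after TPM rescaling (-0.11), quantile normalization (-0.21) or removal of the length trend (-0.08), with small RNAs, pseudogenes and predicted genes left out (-0.09), and without Ddx6-KO library 2 (-0.11) or either TOM library (-0.06 and -0.07). There were 3 higher and 3 lower without Ddx6-KO library 1 or either TOM day 0 library, 3 and 2 without Ddx6-KO library 2, 2 and 2 without TOM library 1 and 2 and 1 without TOM library 2.

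Cell cycle and replication genes were more often lower than higher, 15 against 4 of 36, with a median of -0.70. The lower count was 8 without Ddx6-KO library 1, 11 without Ddx6-KO library 2, 3 without TOM library 1 and 6 without TOM library 2, and the higher count was 2, 1, 1 and 0 in the same order. Mcm6, of the replicative helicase, was at 4.20 and 4.62 FPKM in Ddx6-KO and at 11.1 and 12.7 FPKM in TOM cells (-1.25, SE 0.18, adjusted p = 0.00438). Ccnd3, cyclin D3, was at 29.2 and 23.7 against 56.8 and 55.0 FPKM (-1.06, SE 0.17, adjusted p = 0.0071), and Cdkn1a, the inhibitor p21, at 8.82 and 8.76 against 27.1 and 31.5 FPKM (-1.63, SE 0.16, adjusted p = 0.0012). Of 21 p53 targets, 4 were higher and 3 lower. Plk2, a polo-like kinase, was at 46.2 and 56.1 against 7.69 and 7.23 FPKM (2.62, SE 0.17, adjusted p = 0.000271) and Trp53inp1 at 135 and 125 against 21.2 and 23.9 FPKM (2.48, SE 0.14, adjusted p = 0.000141). The lower count of p53 targets was 1 without either Ddx6-KO day 0 library or any 1 of the 4 day 2 libraries.

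Genes of amino acid supply and the integrated stress response were low. Of 24 tested, 12 were lower and 2 higher, with a median of -0.85. A fit of the day 2 libraries alone gave 4 lower and 0 higher. Cth, the enzyme that makes cysteine, was at 1.27 and 2.37 FPKM in Ddx6-KO and at 33.3 and 34.1 FPKM in TOM cells (-3.65, SE 0.26, adjusted p = 0.000354). Mthfd2, of mitochondrial folate metabolism, was at 2.69 and 1.71 against 11.2 and 12.1 FPKM (-2.0, SE 0.23, adjusted p = 0.00223), and Atf4, the transcription factor of this response, at 29.2 and 30.4 against 66.4 and 64.3 FPKM (-1.11, SE 0.13, adjusted p = 0.00248). The lower count was 7 without Ddx6-KO library 1 and 5 without TOM library 2. Of 36 nuclear genes of the respiratory chain, 6 were lower and 1 higher, and the lower count was 3 without Ddx6-KO library 1 and 2 without either TOM library. Atp5o, a subunit of ATP synthase, was at 15.8 and 12.1 against 49.4 and 41.0 FPKM (-1.63, SE 0.18, adjusted p = 0.00192). Over all tested genes, 8.58% were lower and 10.4% higher.

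Partners of Ddx6 in processing bodies and RNA decay went in both directions. Of 39 tested, 6 were higher, 6 lower and 27 did not pass, against 10.4% higher and 8.58% lower over all tested genes. Their median of 0.07 fell to -0.08 after TPM rescaling and to -0.14 after removal of the length trend. Tnrc6a and Ago1, of the microRNA silencing complex, were at 15.7 and 14.5 against 5.58 and 5.62 FPKM (1.29, SE 0.20, adjusted p = 0.00595) and at 9.67 and 8.49 against 3.59 and 3.63 FPKM (1.13, SE 0.22, adjusted p = 0.0141), respectively. Lsm4, a subunit of the ring that joins decapping, was at 5.26 and 4.61 against 17.4 and 20.2 FPKM (-1.73, SE 0.19, adjusted p = 0.00181). Eif4enif1, which encodes the 4E-T protein of processing bodies, was at 18.1 and 16.0 against 21.4 and 13.7 FPKM and did not differ beyond its spread (-0.01, SE 0.32, adjusted p = 0.994). Ago1 lost its call without Ddx6-KO library 1 or either TOM library (0.0644 to 0.0692). Leaving out either day 0 library of Ddx6-KO cells gave 3 higher and 4 lower. The counts were 1 and 3 without Ddx6-KO library 1 of day 2, and 1 of each without either TOM library of day 2. Of 33 genes of lysosomes and autophagy, 5 were higher and 2 lower, with 3 and 1 without either Ddx6-KO library, 3 and 2 without TOM library 1, and 6 and 1 without TOM library 2. Leaving out either day 0 library of Ddx6-KO cells gave 4 and 1. Ctsd, the protease cathepsin D, was at 342 and 386 against 133 and 148 FPKM (1.37, SE 0.20, adjusted p = 0.00473), Gabarapl1, of the autophagosome, at 57.3 and 58.0 against 16.4 and 19.9 FPKM (1.62, SE 0.17, adjusted p = 0.00148) and Cd63, a tetraspanin, at 10.9 and 11.2 against 26.9 and 28.8 FPKM (-1.26, SE 0.18, adjusted p = 0.00495). Lamp1 and Sqstm1 did not pass, with differences of -0.11 and 0.49. The counts of the lysosome list also stand against 10.4% higher and 8.58% lower over all tested genes.

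The counts of the remaining lists also changed with single libraries, and they stand against 10.4% higher and 8.58% lower over all tested genes. Of 22 NRF2 targets, 4 were higher and 5 lower. Among Ddx6-KO libraries, omitting library 2 of day 2 or a library of day 0 gave 1 higher and 2 lower, and omitting library 1 of day 2 gave 2 and 3. Among TOM libraries, omitting a library of day 0 gave 3 and 2, library 1 of day 2 gave 0 and 1, and library 2 of day 2 gave 0 and 0. After TPM rescaling none was higher and 6 were lower. Of 20 ER chaperones, 1 was higher and 3 lower, with 1 of each when Ddx6-KO library 1 of day 2 was omitted, none when TOM library 1 was and 1 lower alone when TOM library 2 was. Of 18 circadian clock genes, 3 were higher and none was lower, with none called without Ddx6-KO day 2 library 1 and 1 higher without TOM day 2 library 1.

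None of 11 mitochondrial mRNAs passed. Their median of -0.42 was -0.18 when Ddx6-KO library 2 of day 2 was omitted, -0.22 when TOM library 1 was and -0.00 after quantile normalization, and 1 was lower without TOM day 2 library 2. None of 4 osteoblast, 4 macrophage and 2 muscle markers tested passed. Of 2 chondrocyte markers, Col2a1, a cartilage collagen, was at 3.76 and 1.58 FPKM in Ddx6-KO and at 0 and 0.563 FPKM in TOM cells (1.49, adjusted p = 0.0433). Its call was lost in 15 of 21 alternatives, among them the omission of any library other than Ddx6-KO day 2 library 2 (adjusted p from 0.0684 to 0.182). Of 2 endothelial markers, Pecam1, an adhesion molecule, was at 2.54 and 3.41 against 0.124 and 0.780 FPKM (1.48, adjusted p = 0.0235), and lost its call without either Ddx6-KO day 2 library (0.0566 and 0.0788) or TOM day 2 library 1 (0.108).

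A list of 25 genes drawn from the text of the study held genes it followed in these cells and regulators it names only as background, and is no independent evidence of direction. Among them, 7 were higher and 6 lower, with 4 of each when Ddx6-KO library 1 or TOM library 2 of day 2 was omitted, and 3 higher and 4 lower when TOM library 1 was.

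The same lines were compared at day 0, in other libraries, where 1796 genes (11.4%) were called, 1036 (6.55%) higher and 760 (4.81%) lower. Of the 2995 genes called at day 2, 816 were called in the same direction at day 0, which is 27.2% of the day 2 calls and 45.4% of the day 0 calls. The 1638 genes higher at day 2 held 468 that were higher, 40 that were lower and 1130 that were not called at day 0. The 1357 genes lower at day 2 held 348 that were lower, 67 that were higher and 942 that were not called at day 0. A gene called at day 2 and not at day 0 is not thereby shown to differ between the days.

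**Figure D4:**
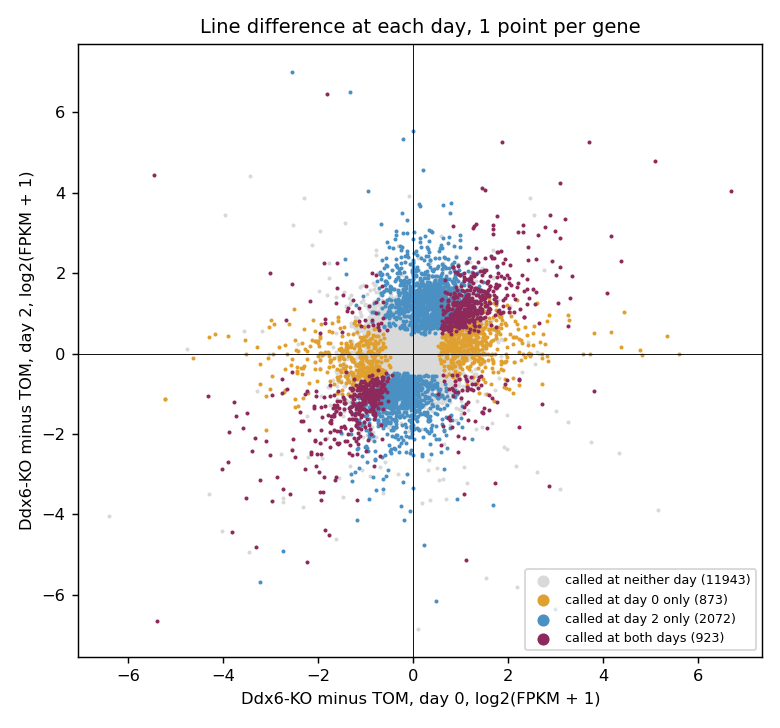
Ddx6-KO minus TOM at day 0 (x axis) and day 2 (y axis) on the log2(FPKM + 1) scale, with 1 point per tested gene and colours for the day at which the gene was called. Genes called at both days lie mostly at the lower left and upper right (816 in the same direction), with 107 in opposite directions.

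The differences also varied with position and gene length. Over protein-coding genes with a mean of at least 5 FPKM, the 169 genes of chromosome 18 had a median of 1.00 at day 2, with 108 higher and 3 lower, and a median of 0.95 at day 0. Other chromosomes lay between -0.42 (chromosome 10) and 0.33 (chromosome 1). Among the genes reported above by name, Zeb1, Zfp521, Pdgfrb, Cdh2, Lox, Stard4, Acaa2 and Iigp1 lie on chromosome 18. Lists above can hold further genes of this chromosome that are not named. With genes split into 5 equal bins by transcript length, the median rose from -0.31 for the shortest (258 to 1978 bases) to 0.20 for the longest, and from -0.12 to 0.24 at day 0. With the length trend removed, 1221 genes were higher and 1671 lower, a share of higher calls of 42.2%. By gene class, 47 of 407 lincRNAs were higher and 12 lower, and 30 of 328 antisense RNAs were higher and 9 lower. Of 97 snoRNAs, 2 were higher and 10 lower. Processed pseudogenes had 120 higher and 141 lower of 1620, and the annotation class TEC had 27 and 1 of 451. Over all tested genes, 10.4% were higher and 8.58% lower, and the higher counts of lincRNAs and antisense RNAs were near that share. The part of library composition in the differences by position, length and class was not tested.

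**Figure D5:**
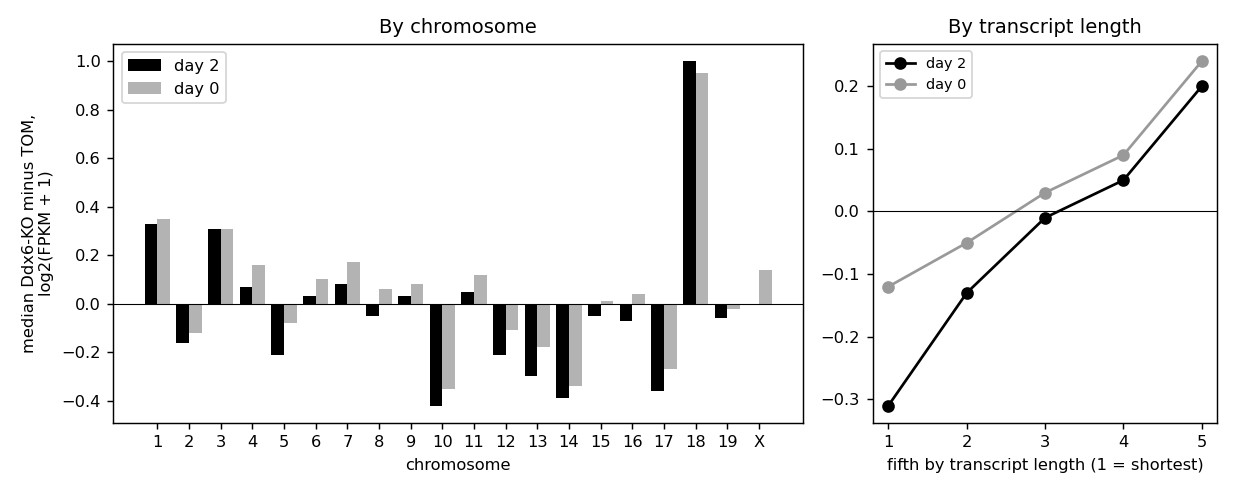
Median of Ddx6-KO minus TOM, log2(FPKM + 1), by chromosome (left, black for day 2 and grey for day 0) and in 5 bins of transcript length (right), over protein-coding genes with a mean of at least 5 FPKM. Chromosome 18 stands at 1.00 and 0.95, and the medians rise with transcript length at both days.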

How the data were processed

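Per the labels and the study's methods, total RNA libraries (TruSeq Stranded) were sequenced as paired ends, aligned to GRCm38/mm10 with TopHat2 2.1.0 and summarised as FPKM per gene with Cufflinks 2.2.1 by the authors. The deposited FPKM values carry these steps. Their annotation release was not given in the sources used here. GENCODE M21 named 45225 of 46073 gene identifiers. Libraries 1 and 2 follow the column numbers, since these differ from the numbers in some sample titles.

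FPKM was taken to log2(FPKM + 1), so that folds of low genes are understated, and the 15811 genes that reached 1 FPKM in 2 or more libraries were fitted with limma 3.58.1 (R 4.3.3). The fit had 1 mean for each of the 4 groups and a variance trend, and p-values were adjusted by Benjamini-Hochberg within a comparison. The day 0 libraries, which were deeper by the estimate above, lend their spread to the day 2 test. The effect of that depth on the calls was not tested. In fits that leave 1 library out, the single library left in that group takes its spread from the other groups. The fit was tested on simulated data.

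The 40 gene lists, the genes and the comparison were chosen with earlier results of these data known. The text names genes by rule: the 15 largest differences in each direction among called genes with a mean of at least 1 FPKM at day 2, an official symbol and no overlap between lines, genes the study names as measured, and up to 4 genes per list with the smallest p. Other genes, such as Plin1, further list members and regulators the study names only as background (Gata2, Gata3, Klf4, Klf6, Klf7), were chosen after their values were seen. Some named genes are not reported here. Alternatives were other pseudocounts, filters, scalings, no variance trend, day 2 libraries alone, a replicate block and leaving out each library. A protein-coding scaling and removal of the length trend were added after seeing the data. Fragment numbers were estimated from the spacing of low values, of which at least 90.7% per library were whole multiples within 0.05. Promoter sequences are from RefSeq (GRCm38.p6) and the exon sequence from GENCODE M21. Figures were drawn with matplotlib 3.10.9 in Python 3.11.15.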

Additional observations from a re-analysis of the deposited data

Results flagged for a closer look

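Some named genes were called in opposite directions at the 2 days. Their difference between the days passed limma's interaction test (adjusted p under 0.05). Opposite calls from the same libraries nearly fix that outcome, so it is no separate support. The values below are the Ddx6-KO minus TOM difference at day 2 less that at day 0, in log2 units. Among matrix and secreted proteins, the value was 9.889 for Apod, 8.278 for Ogn, 2.856 for Adamts2 and 1.718 for Thbs2, all higher in Ddx6-KO cells at day 2 and lower at day 0. Igfbp7 (-1.900), Ccl7 (-2.985), Lcn2 (-3.949) and Vegfa (-2.893) were lower at day 2 and higher at day 0. So were Anxa8 (-6.233), the glycolytic genes Ldha (-2.958) and Eno1 (-2.341), the lipid and sterol enzymes Dgat2 (-3.385), Scd1 (-2.631) and Hmgcs1 (-2.073), the actin-binding gene Tagln2 (-1.525) and Xbp1 (-1.898), a factor of the unfolded protein response. Bst2 (4.294), Ppargc1a (3.852), Tpm1 (2.063), Cnn2 (1.964) and Pde4d (1.450) were higher at day 2 and lower at day 0. Some of these genes lost their day 2 calls without single libraries. Hmgcs1 and Thbs2 did so without TOM day 2 library 1 (adjusted p = 0.0585 and 0.0556), and Ppargc1a without either Ddx6-KO day 2 library or TOM day 2 library 2 (0.0502 to 0.0666). Xbp1 (0.0604 to 0.072) and Cnn2 (0.0523 to 0.0633) did so without Ddx6-KO day 2 library 1 or either TOM day 2 library, and Pde4d without any 1 of the 4 day 2 libraries (0.0712 to 0.103). The timing of samples labelled day 0 is uncertain. Each value rests on 2 libraries per group and day.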

How the results depend on the processing

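The count of called genes was 2995, and leaving out each library in turn gave 1160 to 2760, with 640 to 1495 higher and 520 to 1265 lower. The counts were lowest without TOM day 2 library 1 (1160), TOM day 2 library 2 (1239) and Ddx6-KO day 2 library 1 (1534). The day 2 libraries alone gave 1001, of which 521 were higher and 480 lower. TPM rescaling gave 1062 higher and 1585 lower, 40.1% higher against 54.7%, and removal of the length trend gave 42.2% higher. No setting called a gene in the opposite direction. Of 152 named genes that were called, 100 kept their call in each of the 21 alternatives that tested them. Not every alternative tested every gene, since the filter at 5 FPKM left 9086 genes. A block by column number gave 2561 genes, 1413 higher and 1148 lower. Deviations of same-numbered libraries were correlated at -0.10 to 0.07 over 6 pairs of groups, so no shared deviation followed the column numbers. With 2 libraries per group, this cannot show whether any libraries were made together. Uncalled genes near 0 changed sign. Twist2 was at 0.000 with a pseudocount of 5, 0.019 after median-ratio scaling, 0.002 after quantile normalization and 0.013 after protein-coding scaling, and between -0.264 and 0.256 without single libraries. In the same order of scalings, Eif4enif1 was at 0.011, 0.017 and 0.005, and between -0.318 and 0.292. Lamp1 was at 0.160 after quantile normalization, Cebpb at -0.120 after TPM rescaling and Twist1 between -0.181 and 0.953 without single libraries. Ddx6 passed without either TOM day 0 library (adjusted p = 0.0289 and 0.0298). The shallow day 2 libraries limit calls of low genes.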
